A study of Rattus norvegicus with 50 samples.

Results

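The livers of injured rats that received saline were compared between 7 days and 24 h after the injury, 5 animals at each time, which are 10 of the 50 arrays of the series. All 50 animals were male Sprague Dawley rats of about 3 months of age. The injury was a controlled cortical impact (CCI), a mechanical contusion of the exposed brain, and the vehicle was saline. The other groups used here, also of 5, were intact sham animals, vehicle animals at 72 h after CCI, and CCI animals given anakinra (100 mg/kg, an antagonist of the interleukin-1 receptor) or erythropoietin (EPO, 2500 IU/kg, the growth factor of red cell precursors) at 24 h and at 7 days. The anakinra and EPO groups at 72 h, also of 5, entered the statistical fit of all 50 arrays but were not compared. Each array held RNA of 1 animal, from punches of the median liver lobe, hybridised to the Affymetrix Rat Gene 1.0 ST array. The injury was to the brain, and both vehicle groups had the CCI and the saline and differ by their labels only in time. The sham group carries neither a time nor a vehicle in its labels, and the sources used here give neither the hour of the day of collection nor the dosing schedule. The members were found by their titles, and the tissue was checked with 13 hepatocyte markers. Their mean level lay between 12.76 and 12.88 at 24 h and between 12.74 and 12.86 at 7 days on the log2 scale, against a median of all probes between 6.66 and 6.89 in the 50 arrays.

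The liver answers inflammatory signals that reach it through the blood with the acute phase response, in which hepatocytes make more of a set of secreted proteins such as Lbp and haptoglobin and load their secretory pathway accordingly. It also holds a circadian clock, in which Bmal1 pairs with Clock or Npas2 to drive the genes of the repressors Per and Nr1d1 and of output factors such as Dbp and Tef. Cholesterol synthesis is driven by Srebf2, whose targets include squalene epoxidase. All of these set the liver's metabolism, and the title of the series names hepatic metabolising enzymes and transporters as its subject.

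All levels below are log2 robust multi-array average (RMA) values, a difference is the level at 7 days minus the level at 24 h unless said otherwise, and passing means an adjusted p under 0.05 in limma, with the adjustment over all 14506 genes. Between 24 h and 7 days 36 genes passed, 17 higher and 19 lower at 7 days, which is 0.248% of the genes tested (0.117% higher and 0.131% lower). The number of genes with an unadjusted p under 0.05 was 1190. The lowest differences were those of the clock output factor Dbp, the citrate transporter Slc13a5, the ER degradation gene Derl3, the cholesterol enzyme Sqle and the clock gene Per3, and the highest those of the taurine transporter Slc6a6, the clock factor Npas2 and the carbonic anhydrase Car1. Of the 36, 3 were at least 2-fold higher and 5 at least 2-fold lower, and in 30 the 5 arrays at 7 days all lay beyond the 5 at 24 h. Over all genes such a separation occurred in 0.593% upward and 0.627% downward. The 36 were picked on these same arrays, so their separation is a description and adds no support. Probes without a single gene symbol, 13904 in number, gave 1 higher (0.00719%) and 2 lower (0.0144%) in a fit of all probes.

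Against sham, 120 genes passed at 24 h (54 higher and 66 lower, 0.827% of the genes tested, 0.372% higher and 0.455% lower) and 0 at 7 days in limma, where 946 had an unadjusted p under 0.05. The comparisons with sham share arrays with the one between the times, so their values stand beside it as a description. The 36 genes differed from sham by a median of 0.51 in size at 24 h, with 1.58 as the highest, and by a median of 0.088 at 7 days. The gene farthest from sham at 7 days was Cptp, a carrier of ceramide 1-phosphate, with a difference of -0.55.

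**Figure D1:**
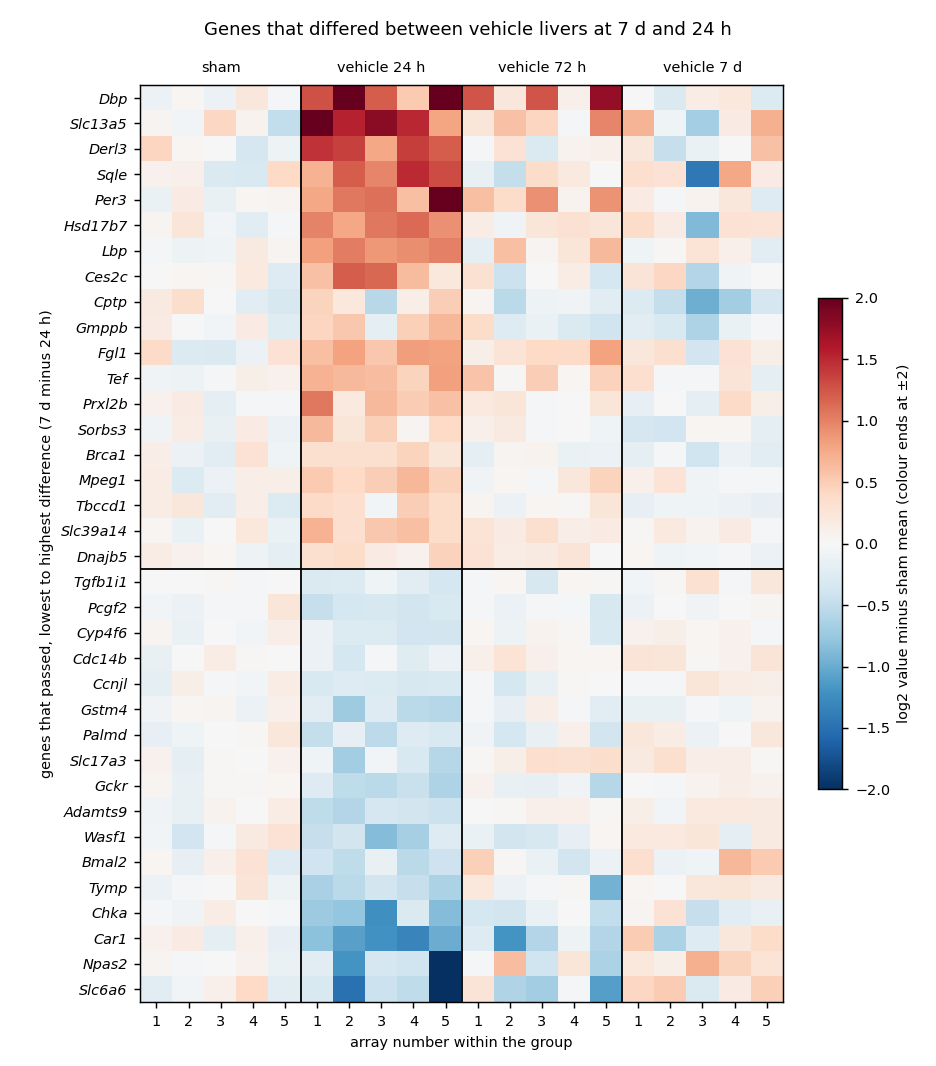
Log2 level of the 36 genes that passed (vertical axis, lowest to highest 7 day minus 24 h difference) in the single arrays of the sham, vehicle 24 h, vehicle 72 h and vehicle 7 day groups (horizontal axis, 5 arrays each), as the difference from the sham mean, with colours ending at 2 in both directions. The upper 19 genes are red and the lower 17 blue mainly in the 24 h columns, array 5 at 24 h is the deepest blue for Npas2 and Slc6a6, and array 3 at 7 days is blue for Sqle, Hsd17b7 and Cptp.

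The count rests on single animals. It was 9 without array 5 at 24 h, 14 without array 2, 15 without array 4 and 40 without array 3 of that group, and 10 without array 5, 19 without array 2 and 20 without array 1 at 7 days. Adamts9, Hsd17b7, Gckr, Derl3 and Prxl2b passed whichever single array was left out, and the other 31 were lost without at least 1. A fit of these 10 arrays alone called 6 genes, and 3 of them were among the 36, Derl3, Lbp and Tymp. Adamts9 (adjusted p = 0.0629), Gckr (0.0912), Hsd17b7 (0.257) and Prxl2b (0.436) did not pass in that fit. Array 3 at 24 h and array 3 at 7 days had the narrowest spread of values in their groups, and with them and 3 other arrays of narrow spread left out of the fit 33 genes passed, 22 of them among the 36, with 21 higher and 12 lower. Another quantile normalisation gave 19 higher and 32 lower, and centring each array on its median gave 11 higher and 7 lower. None of the 36 changed direction under any of these alternatives.

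Clock genes held both the lowest and the second highest difference among the genes that passed. Of the 17 measured clock and output genes 3 fell, Dbp, Per3 and Tef, and 1 rose, Npas2. Over all genes 0.131% fell and 0.117% rose. The median difference of the 17 was 0.00, against -0.02 over all genes. Because the hour of collection is not given, time after injury and hour of the day cannot be told apart. This holds for the clock genes and for every other gene of the comparison.

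Dbp (probe 10706953), a transcription factor that carries the clock's rhythm to metabolic genes, measured 8.92, 9.73, 8.87, 8.17 and 10.46 in the 5 livers at 24 h. At 7 days it measured 7.66, 7.37, 7.80, 7.85 and 7.38, and the sham arrays lay between 7.53 and 7.88. The 24 h livers were all above the 7 day livers and spread over more than 2 log2 units, with array 5 the highest. The mean fell from 9.23 ± 0.88 to 7.61 ± 0.23 (SD, n = 5), a 3.07-fold difference (log2 -1.62, SE 0.34, adjusted p = 0.0238). At 72 h it was 8.57 ± 0.72. The call was lost without array 2 or 5 at 24 h (adjusted p = 0.0727 and 0.109) and without array 2 or 5 at 7 days (0.0614 and 0.0735).

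Per3 (10881861), a period gene of the clock's repressor arm, measured 7.12, 7.41, 7.45, 6.96 and 8.46 at 24 h and 6.52, 6.31, 6.43, 6.58 and 6.10 at 7 days. Array 5 at 24 h again stood highest, and the groups did not overlap. The difference was -1.09 (SE 0.20, adjusted p = 0.00583, 2.14-fold), and without array 5 at 24 h it was -0.85 with an adjusted p = 0.0517. Tef (10897997), a relative of Dbp that binds the same D-box element, measured 8.63, 8.58, 8.54, 8.37 and 8.76 at 24 h and 8.26, 7.89, 7.91, 8.19 and 7.73 at 7 days. Its 24 h livers lay close together, unlike those of Dbp. The 1.49-fold fall (-0.58, SE 0.11, adjusted p = 0.0142) was lost without array 5 at 24 h (0.0663) or array 5 at 7 days (0.0735).

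Npas2 (10922745), a partner of Bmal1 and relative of Clock, went the other way, with 9.13, 8.16, 9.01, 8.96 and 7.32 at 24 h and 9.57, 9.47, 10.06, 9.80 and 9.62 at 7 days. The arrays that were highest for Dbp at 24 h, 2 and 5, were the lowest for Npas2. The gene rose 2.28-fold (log2 1.19, SE 0.23, adjusted p = 0.00875), and without array 5 at 24 h the difference was 0.89 (adjusted p = 0.0716). Bmal2 (10859671), a relative of Bmal1 outside the clock list, measured 6.61, 6.51, 6.87, 6.48 and 6.60 at 24 h and 7.34, 6.90, 6.93, 7.67 and 7.53 at 7 days. It rose 1.58-fold (0.66, SE 0.15, adjusted p = 0.0394), with array 3 at 24 h just under the lowest 7 day livers, and the call was lost without 7 of the single arrays, with adjusted p up to 0.157 (array 5 at 7 days).

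Other core clock genes did not pass. Bmal1 measured 8.56 ± 0.41 at 24 h and 9.24 ± 0.16 at 7 days (0.68, adjusted p = 0.0841), beside 9.26 ± 0.04 in sham. Nr1d1, a repressor of Bmal1, measured 9.85 ± 0.33 and 8.69 ± 0.28, and all of its 7 day arrays lay below those at 24 h, with an adjusted p = 0.409. In the limma fit of the 10 compared arrays alone Nr1d1 passed, with an adjusted p = 0.0276. Its sham arrays ran from 8.15 to 9.94, which covers the 7 day livers and part of those at 24 h. Per2 (-0.53, adjusted p = 0.259), Clock (0.20, 0.381) and Per1 (0.18, 0.924) did not pass either.

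RefSeq promoter windows, which reach from 250 bases before to 50 bases after a gene's start in the GRCr8 assembly, were found for 30 of the 36 genes and searched on both strands. The E-box CACGTG, which Bmal1 dimers bind, occurred in 3 of the 30 (Tef, Derl3 and Slc17a3) and in 6.42% of all 33469 windows. The D-box TTATGTAA, bound by Dbp and Tef, occurred in 0 of the 30 and in 0.893% of all. The sterol regulatory element core CACCCCAC was in Slc13a5 alone (2.7% of all), the element TGACGTCA in Cdc14b alone (1.83%) and the unfolded protein response core TGACGTGG in 0 (0.595%). Cdc14b also carries its match before the gene start, and its sequence is not shown. The 250 bases before the gene start of the clock gene Tef (chr7:115206577-115206826, plus strand), the secretory pathway gene Derl3 (chr20:12766466-12766715, minus strand) and the transporters Slc17a3 (chr17:41723110-41723359, minus strand) and Slc13a5 (chr10:57388849-57389098, minus strand) are shown because they carry these letters, with the match in capitals, read 5′ to 3′.
Tef: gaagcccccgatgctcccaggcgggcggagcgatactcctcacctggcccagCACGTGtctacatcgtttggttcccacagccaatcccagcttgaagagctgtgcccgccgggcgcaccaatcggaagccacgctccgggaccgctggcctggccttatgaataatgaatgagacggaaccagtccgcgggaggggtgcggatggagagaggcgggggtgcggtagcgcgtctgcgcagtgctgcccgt
Derl3: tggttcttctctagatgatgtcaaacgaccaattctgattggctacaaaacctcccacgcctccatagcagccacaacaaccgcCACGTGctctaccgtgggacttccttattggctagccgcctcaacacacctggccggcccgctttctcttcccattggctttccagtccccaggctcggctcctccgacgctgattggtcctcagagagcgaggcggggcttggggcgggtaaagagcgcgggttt
Slc17a3: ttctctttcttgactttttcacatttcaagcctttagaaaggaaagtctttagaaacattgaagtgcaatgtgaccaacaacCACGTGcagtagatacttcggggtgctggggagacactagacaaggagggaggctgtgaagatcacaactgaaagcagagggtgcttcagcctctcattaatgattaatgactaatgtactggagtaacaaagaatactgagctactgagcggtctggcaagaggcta
Slc13a5: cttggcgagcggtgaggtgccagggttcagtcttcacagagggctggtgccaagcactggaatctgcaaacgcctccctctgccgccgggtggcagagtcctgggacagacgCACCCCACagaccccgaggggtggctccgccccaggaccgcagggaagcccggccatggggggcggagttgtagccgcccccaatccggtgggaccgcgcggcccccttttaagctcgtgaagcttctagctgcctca
A match is a run of letters, not a measured site, and these 4 genes fell (Tef, Derl3, Slc13a5) or rose (Slc17a3).

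**Figure D2:**
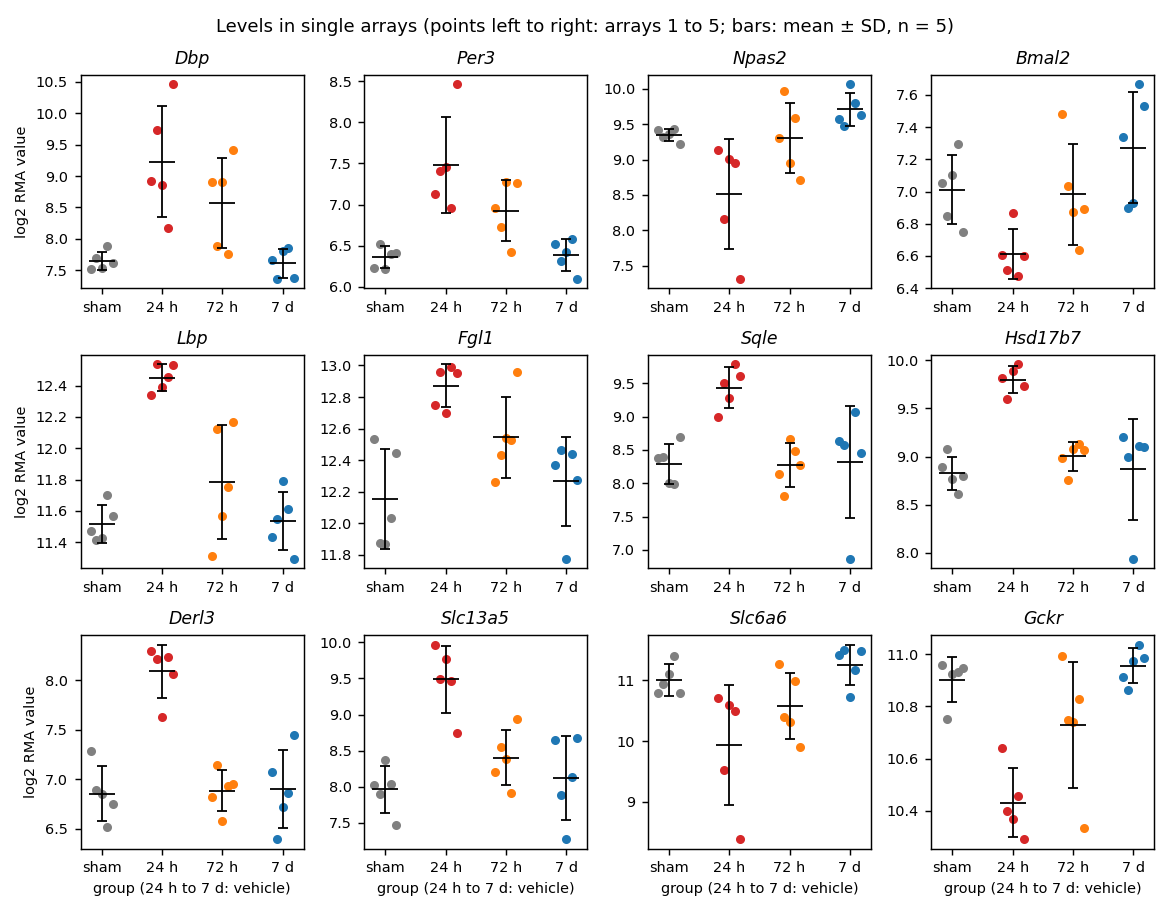
Log2 RMA level (vertical axis, its range set per panel) of 12 of the 36 genes in sham, vehicle 24 h, vehicle 72 h and vehicle 7 day livers (horizontal axis). Points are single arrays in order of their number and bars the mean ± SD of 5. The 24 h mean is the highest or the lowest of the 4 in every panel, the 72 h mean lies nearer to sham than the 24 h mean does, and single low points at 7 days belong to array 3 for Fgl1, Sqle and Hsd17b7.

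Most acute phase genes had lower levels at 7 days, and few passed. Of 40 measured positive acute phase genes 2 passed, Lbp and Fgl1, both lower (0.131% of all genes were), and 31 had a negative difference, against 8207 of the 14506 genes. The median difference of the list was -0.12 (-0.02 over all genes), and in 9 of its members the 5 arrays at 7 days all lay below the 5 at 24 h (0.627% over all genes). In bulk tissue, fewer cells of a type and less RNA per cell cannot be told apart.

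Lbp (10841693), which carries bacterial lipopolysaccharide to its receptor, measured 12.34, 12.53, 12.39, 12.45 and 12.53 at 24 h and 11.43, 11.55, 11.79, 11.61 and 11.30 at 7 days. The 24 h livers lay within 0.2 of each other and far above the 7 day livers, which overlapped the sham range of 11.42 to 11.70. It fell 1.88-fold (-0.91, SE 0.20, adjusted p = 0.0296), and at 72 h the arrays lay between 11.31 and 12.17. The call was lost without 6 of the single arrays (1, 2 or 5 at 7 days, 2, 4 or 5 at 24 h, adjusted p up to 0.103), while its difference stayed between -0.98 and -0.85. Fgl1 (10788365), a fibrinogen-like protein secreted by hepatocytes, measured 12.75, 12.96, 12.70, 12.99 and 12.96 at 24 h and 12.37, 12.47, 11.77, 12.44 and 12.27 at 7 days, with array 3 the lowest. It fell 1.52-fold (-0.61, SE 0.13, adjusted p = 0.0296), and without that array, 1 of 5 whose omission ended the call, the difference was -0.48 (adjusted p = 0.102).

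Slc39a14 (10785019), a zinc and iron importer that rises in the acute phase, measured 11.11, 10.74, 10.95, 11.02 and 10.77 at 24 h and 10.44, 10.60, 10.47, 10.58 and 10.37 at 7 days. The groups did not overlap, and the fall was 1.34-fold (-0.43, SE 0.09, adjusted p = 0.0296, up to 0.109 without 1 array, array 5 at 7 days). It was the 1 gene of 39 measured iron genes that passed, beside 0.248% of all genes. Several known acute phase genes had no array in common between the groups and did not pass. They were haptoglobin (Hp, -0.26, adjusted p = 0.0620), the complement inhibitor C4bpa (-0.36, 0.0685), the transcription factor Stat3 (-0.56, 0.0685), kininogen (Kng1, -0.36, 0.124, and -0.72 with its other probe) and orosomucoid (Orm1, -0.61, 0.214). Il1r1, the receptor that anakinra blocks, measured 8.67 ± 0.07 in sham, 9.60 ± 0.16 at 24 h and 9.05 ± 0.27 at 7 days (-0.55, adjusted p = 0.158), and all 5 of its 7 day arrays lay above the highest sham value of 8.75. Of 34 coagulation and complement genes 0 passed, 29 were negative and the median was -0.13, beside 8207 of 14506 and -0.02 over all genes.

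Cholesterol synthesis genes also had lower levels at 7 days, and 1 animal weighed on their size. Of 21 measured cholesterol genes 2 passed, both lower, and 20 had a negative difference with a median of -0.31. Over all genes 0.131% were called lower, 8207 of 14506 were negative and the median was -0.02. Without the arrays of narrow spread 17 were negative and the median was -0.20. Hsd17b7 (10769680), a ketosteroid reductase of the pathway, measured 9.82, 9.59, 9.89, 9.96 and 9.74 at 24 h and 9.20, 8.99, 7.94, 9.11 and 9.10 at 7 days. Array 3 at 7 days stood more than 1 log2 unit below the other 4, which also lay below every 24 h liver. The fall was 1.90-fold (-0.93, SE 0.17, adjusted p = 0.00583), and without that array it was -0.70 (adjusted p = 0.0276). In the fit of 10 arrays Hsd17b7 did not pass (adjusted p = 0.257). Sqle (10896772), squalene epoxidase, measured 8.99, 9.50, 9.27, 9.78 and 9.60 at 24 h and 8.63, 8.58, 6.87, 9.07 and 8.45 at 7 days. Here array 4 at 7 days overlapped the 24 h range and array 3 was again far below the others. The difference of -1.11 (SE 0.25, adjusted p = 0.0360) became -0.75 without array 3 at 7 days, with an adjusted p = 0.127, and the call was also lost without array 5 at 7 days or array 2, 4 or 5 at 24 h.

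Array 3 at 7 days was also the lowest for the sterol enzymes Idi1, Cyp51 and Msmo1, with 6.78, 10.04 and 9.62 against lowest values of 8.50, 11.42 and 10.91 in the other 4 livers. None of these passed (adjusted p = 0.118, 0.143 and 0.175). Lanosterol synthase (Lss) measured 10.13 ± 0.12 at 24 h and 9.58 ± 0.30 at 7 days (-0.56, adjusted p = 0.0620), and Srebf2, the pathway's transcription factor, 10.15 ± 0.23 and 9.79 ± 0.26 (-0.37, 0.231). The desaturase Scd, a fatty acid gene, had the widest difference under vehicle of the genes named here, 9.93 ± 1.32 against 12.04 ± 0.88 (2.11, SE 0.57), and did not pass (0.108). Its 24 h livers ran from 8.62 to 11.97 and its 7 day livers from 11.12 to 13.05, so the groups overlapped. Of 21 fatty acid synthesis genes 0 passed.

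Among genes of the secretory pathway Derl3 led the calls. Of 32 measured ER chaperone and unfolded protein response genes it was the 1 that passed, and 29 had a negative difference, with a median of -0.21. Beside them, 0.131% of all genes were called lower, 8207 of 14506 were negative and the median was -0.02. Derl3 (10832487), a membrane protein that draws misfolded proteins out of the ER, measured 8.30, 8.22, 7.63, 8.24 and 8.06 at 24 h and 7.07, 6.40, 6.71, 6.86 and 7.44 at 7 days. All 24 h livers lay above the 7 day livers and above the highest sham value of 7.28. It fell 2.28-fold (-1.19, SE 0.22, adjusted p = 0.00583) and, alone among the 36, passed under every alternative, with adjusted p up to 0.0331 in the fit of 10 arrays. Its level at 72 h, 6.88 ± 0.21, was already near that of sham (6.85 ± 0.28).

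Other ER genes had lower means at 7 days and did not pass. They were Hyou1, an ER chaperone (-0.66, adjusted p = 0.0695), Syvn1, the ubiquitin ligase that works with Derlins (-0.35, 0.0685), Creld2 (-0.79, 0.0873) and Hspa5, the main ER chaperone (-0.30, 0.140). Gmppb (10913141), which makes the GDP-mannose used for glycosylation, fell by 0.64 (SE 0.15, adjusted p = 0.0409). Its array 3 at 24 h, 6.62, lay inside the 7 day range of 6.19 to 6.79 and the other 4 were above 7.2, and the adjusted p reached 0.143 with 1 array left out. Of 21 cytosolic heat shock genes 0 passed, with 16 negative and a median of -0.19, beside 8207 of 14506 and -0.02 over all genes. Dnajb5 (10868428), an Hsp40 co-chaperone, fell by 0.33 (SE 0.08, adjusted p = 0.0433).

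Among transporters and drug-metabolising enzymes, the subject of the series, few genes passed. The list of cytochrome P450 families 1 to 3, which also holds the P450 reductase Por, had 36 measured members. Of these 0 passed, 18 were positive and 18 negative, and the median was 0.01. Their differences ran from -0.60 (Por) to 0.45 (Cyp2f4). In 2 members all arrays at 7 days lay above those at 24 h, and in 1 all lay below. Over all genes 0.593% and 0.627% did so. Cyp1a2 (-0.11), Cyp2c11 (0.11), Cyp2e1 (-0.14) and Cyp3a2 (-0.10), abundant enzymes of the rat liver, differed by less than 0.15, with adjusted p from 0.635 to 0.797. The bile acid enzymes Cyp7a1 (-0.49, SE 0.40) and Cyp8b1 (-0.53, SE 0.23) had adjusted p of 0.796 and 0.495, and for Cyp8b1 the groups did not overlap. Of 21 efflux transporters 0 passed, with a median of -0.00.

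Of 33 uptake transporters 2 rose and 1 fell, against 0.117% and 0.131% of all genes. Slc13a5 (10744687), the citrate transporter of hepatocytes, measured 9.97, 9.50, 9.77, 9.47 and 8.74 at 24 h and 8.65, 7.88, 7.28, 8.13 and 8.67 at 7 days. The lowest 24 h liver, array 5, lay just above the highest at 7 days. It fell 2.58-fold (-1.37, SE 0.31, adjusted p = 0.0360), and the call was lost without 7 of the single arrays, with adjusted p up to 0.103 (without array 3 at 7 days) and 0.209 without the arrays of narrow spread. Slc6a6 (10857314), the taurine transporter, measured 10.70, 9.52, 10.59, 10.50 and 8.39 at 24 h and 11.42, 11.51, 10.72, 11.17 and 11.48 at 7 days. Arrays 2 and 5 at 24 h were far below the rest, and array 3 at 7 days was only just above the highest 24 h liver. It rose 2.50-fold (1.32, SE 0.28, adjusted p = 0.0253), and without array 5 at 24 h, 1 of 5 arrays whose omission ended the call, the difference was 0.93 (adjusted p = 0.118). Slc17a3 (10795218), an organic anion and phosphate transporter, rose 1.42-fold, from 11.08 ± 0.29 to 11.58 ± 0.11 (adjusted p = 0.0273), with adjusted p up to 0.127 without array 2 at 24 h. Slco1a4, an organic anion importer, did not pass (0.52, adjusted p = 0.488).

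Of 36 other phase I enzymes 1 passed, Ces2c, beside 0.248% of all genes. The differences of the list ran from -1.02 (Nqo1) to 1.16 (Akr7a3), and neither of those genes passed. Ces2c (10716509), a carboxylesterase, measured 9.06 ± 0.42 at 24 h and 8.31 ± 0.39 at 7 days (-0.75, SE 0.17, adjusted p = 0.0404), with array 5 at 24 h (8.51) inside the 7 day range of 7.71 to 8.73. Without array 2 at 24 h its adjusted p was 0.155. The aldehyde reductase Akr7a3 measured 9.29 ± 0.37 and 10.45 ± 0.60 and did not pass (1.16, SE 0.31, adjusted p = 0.107). Of 36 conjugating enzymes 1 passed, Gstm4 (10825931), a glutathione S-transferase that was 1.31-fold higher (0.39, SE 0.09, adjusted p = 0.0457). Of those 36, 27 were positive, with a median of 0.08, beside 6299 of 14506 and -0.02 over all genes. The list named 56 conjugating enzymes, and the rest were not measured. Ugt1a1 and Gsta2, enzymes of this kind, had no measured value. Cyp4f6 (10901069), a fatty acid hydroxylase outside these lists, rose by 0.34 (adjusted p = 0.0394). Ces2c, Gstm4 and Cyp4f6 have close relatives in the rat genome, and cross-hybridisation between them was not tested.

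**Figure D3:**
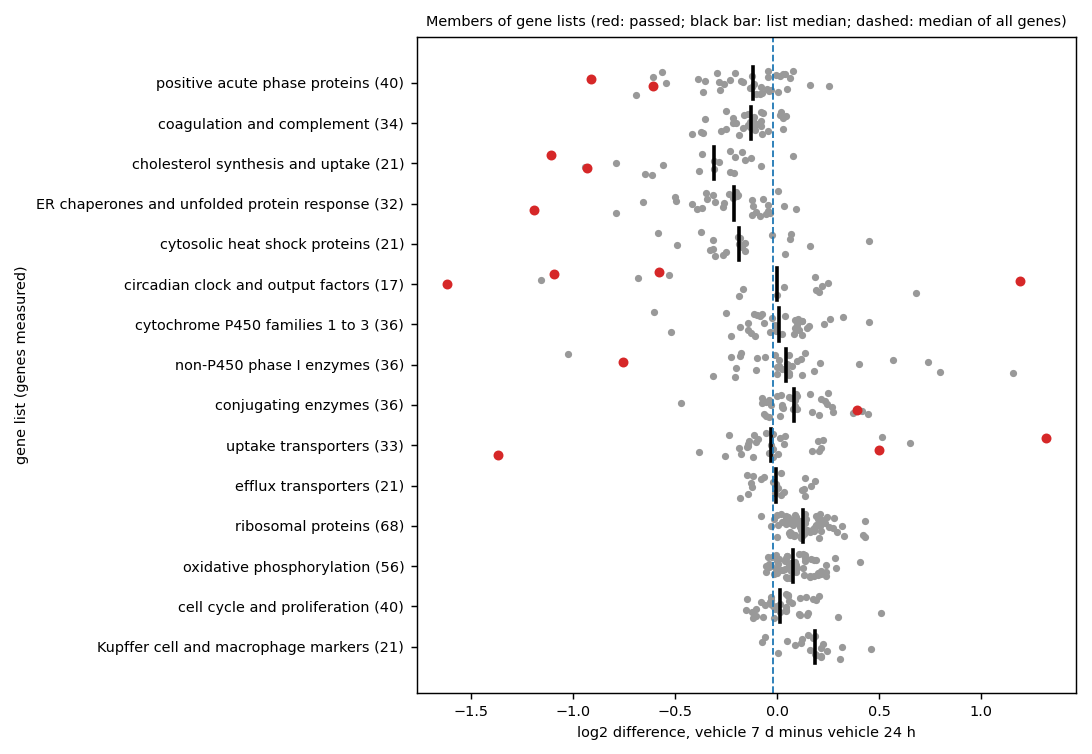
Difference between vehicle livers at 7 days and 24 h (horizontal axis, log2) of every measured member of 15 gene lists (vertical axis, number measured in brackets), with red points for genes that passed, black bars for list medians and a dashed line for the median of all 14506 genes, -0.02. The cholesterol, ER and acute phase lists lie to the left of the dashed line, P450 enzymes and efflux transporters lie on both sides of it, and the clock list is spread from -1.62 to 1.19.

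Metabolic and structural genes made up the rest of the calls. Gckr (10940610), a hepatic regulator of glucose use, measured 10.64, 10.40, 10.37, 10.46 and 10.29 at 24 h and 10.91, 10.86, 10.97, 11.04 and 10.99 at 7 days. The groups were tight and did not overlap, and Gckr rose 1.44-fold (0.52, SE 0.10, adjusted p = 0.00583), with adjusted p up to 0.0293 without any 1 array. In the fit of 10 arrays it did not pass (adjusted p = 0.0912). Adamts9 (10864185), a secreted protease of the extracellular matrix, had the smallest adjusted p of all. It measured 6.51, 6.43, 6.69, 6.66 and 6.59 at 24 h and 7.13, 6.97, 7.21, 7.22 and 7.19 at 7 days, a 1.48-fold rise (0.57, SE 0.09, adjusted p = 0.00208). In the fit of 10 arrays Adamts9 did not pass (adjusted p = 0.0629). Car1 (10814184), a carbonic anhydrase known from red cells, measured 7.30, 7.02, 6.90, 6.80 and 7.12 at 24 h and 8.61, 7.48, 7.86, 8.34 and 8.48 at 7 days. It rose 2.18-fold (1.13, SE 0.24, adjusted p = 0.0253), and the call was lost without 6 of the single arrays, with adjusted p up to 0.0975 (array 5 at 7 days). It was the only 1 of 26 erythroid and blood transcripts that passed, and 16 of the 26 were positive with a median of 0.11. Over all genes 0.117% were called higher, 6299 of 14506 were positive and the median was -0.02.

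Tymp (10906285), thymidine phosphorylase, rose from 10.97 ± 0.11 to 11.63 ± 0.11 (1.58-fold, adjusted p = 0.0174), and Chka (10712706), choline kinase of phospholipid synthesis, 1.60-fold (0.68, SE 0.15, 0.0273). Its 24 h livers ran from 9.87 to 10.80 and its 7 day livers from 10.63 to 11.38, with array 4 the highest at 24 h and array 3 the lowest at 7 days. Wasf1 (10833952), an actin regulator, rose from 7.75 ± 0.24 to 8.41 ± 0.18 (1.57-fold, 0.0176) and had an adjusted p = 0.109 without the arrays of narrow spread. Prxl2b (10882071), a prostaglandin F synthase, fell from 7.13 ± 0.31 to 6.56 ± 0.24 (1.49-fold, 0.00677), with array 2 at 24 h (6.73) inside the 7 day range of 6.33 to 6.91. Its adjusted p was 0.0550 without the arrays of narrow spread and 0.436 in the fit of 10 arrays. Cptp (10882234) fell by 0.70 (adjusted p = 0.0296) with only 2 of its 5 arrays at 7 days below every 24 h array, and array 3 was the lowest of both groups. The remaining calls were smaller than 1.5-fold. Palmd, Pcgf2, Ccnjl, Tgfb1i1 and Cdc14b rose by 0.34 to 0.45, and Brca1, Tbccd1, Sorbs3 and Mpeg1 fell by 0.43 to 0.52.

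Most proliferation genes had levels below sham at both times, and no call was made between the times. Of 40 measured cell cycle genes 0 passed in limma between the times, with a median difference of 0.01. At 24 h 34 of the 40 lay below sham (median -0.16), beside 6088 of all 14506 genes, and 5 were called lower (0.455% of all genes). At 7 days 34 lay below sham (median -0.14), beside 6461 of all genes, and 0 were called. Rrm2, a subunit of ribonucleotide reductase, measured 5.64, 5.92, 5.97, 5.90 and 5.70 at 24 h and between 5.61 (array 1) and 6.12 (array 3) at 7 days, with a mean of 5.94 ± 0.20. Both groups lay below the lowest sham array of 6.31. The difference between the times was 0.11 (adjusted p = 0.924), and against sham it was -1.04 at 24 h (adjusted p = 0.00192) and -0.93 at 7 days (0.121). Cyclin D1 (Ccnd1), which starts the cycle, measured 8.19, 8.57, 8.46, 8.49 and 8.74 at 24 h and 9.28, 8.72, 9.47, 8.72 and 8.80 at 7 days, beside a sham range of 9.22 to 10.07. Of the 7 day livers 2 reached that range, and the difference of 0.51 (SE 0.21) did not pass (adjusted p = 0.461).

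The same contrast was run in the anakinra and EPO animals, whose group means share no arrays with it. The contrasts came from the same fit of all 50 arrays and share its estimate of each gene's spread. Under anakinra 5 genes were higher and 1 lower at 7 days than at 24 h (0.0414% of the genes, 0.0345% and 0.00689%), with 1145 at an unadjusted p under 0.05. Under EPO 107 were higher and 99 lower (1.42%, 0.738% and 0.682%). Of the 36 vehicle genes 34 had the same direction under anakinra, where 63.3% of all genes did, and 35 under EPO, where 47.8% did. Of the 36, 3 passed under anakinra and 8 under EPO, all in that direction. Ccnjl and Tgfb1i1 went the other way under anakinra, by -0.15 and -0.01, and Pcgf2 under EPO, by 0.00 in size.

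Adamts9 passed in each of the 3, with 0.57 under vehicle, 0.45 under anakinra (SE 0.09, adjusted p = 0.0412) and 0.51 under EPO (SE 0.09, 0.000530). Tef passed under vehicle and anakinra, where it measured 8.61, 8.47, 8.31, 8.60 and 8.21 at 24 h and 7.74, 7.83, 7.78, 7.85 and 8.05 at 7 days (-0.59, adjusted p = 0.0272). Bmal2 under anakinra measured 6.76, 6.68, 6.64, 6.62 and 6.73 at 24 h and 7.30, 7.47, 7.86, 7.49 and 7.99 at 7 days, a difference of 0.93 (SE 0.15, adjusted p = 0.00246). Neither gene had an array in common between the times. The Dbp difference was -1.17 under anakinra and -0.61 under EPO, with the groups apart in both, and neither passed (adjusted p = 0.215 and 0.423). Derl3 fell by 1.22 under EPO (SE 0.22, adjusted p = 0.000516), and its difference under anakinra, -0.82, did not pass (0.145). Slc13a5 fell by 1.37 under EPO (SE 0.31, adjusted p = 0.00939), and its difference of -0.70 under anakinra did not pass (0.549).

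Whether the change over time itself differed from vehicle was tested as an interaction. For anakinra 0 of the 14506 genes passed in limma, with 488 at an unadjusted p under 0.05, and the smallest adjusted p among the 36 was 0.460, for Ccnjl. For EPO 2 genes passed (0.0138%), Hamp and Cd52, neither of which passed between the times under vehicle. Hamp, hepcidin, the hormone that restrains iron uptake, measured 12.81 ± 0.27 at 24 h and 12.97 ± 0.28 at 7 days under vehicle, a difference of 0.16 (adjusted p = 0.955). Under EPO it ran from 9.24 to 11.89 at 24 h and from 7.08 to 7.54 at 7 days, and the interaction was 3.86 (SE 0.62, adjusted p = 0.00162). Cd52, a surface protein of leukocytes, measured 6.74 ± 0.18 and 6.97 ± 0.40 under vehicle and reached 8.28 to 9.66 at 7 days under EPO (interaction -2.10, SE 0.39, adjusted p = 0.0184).

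**Figure D4:**
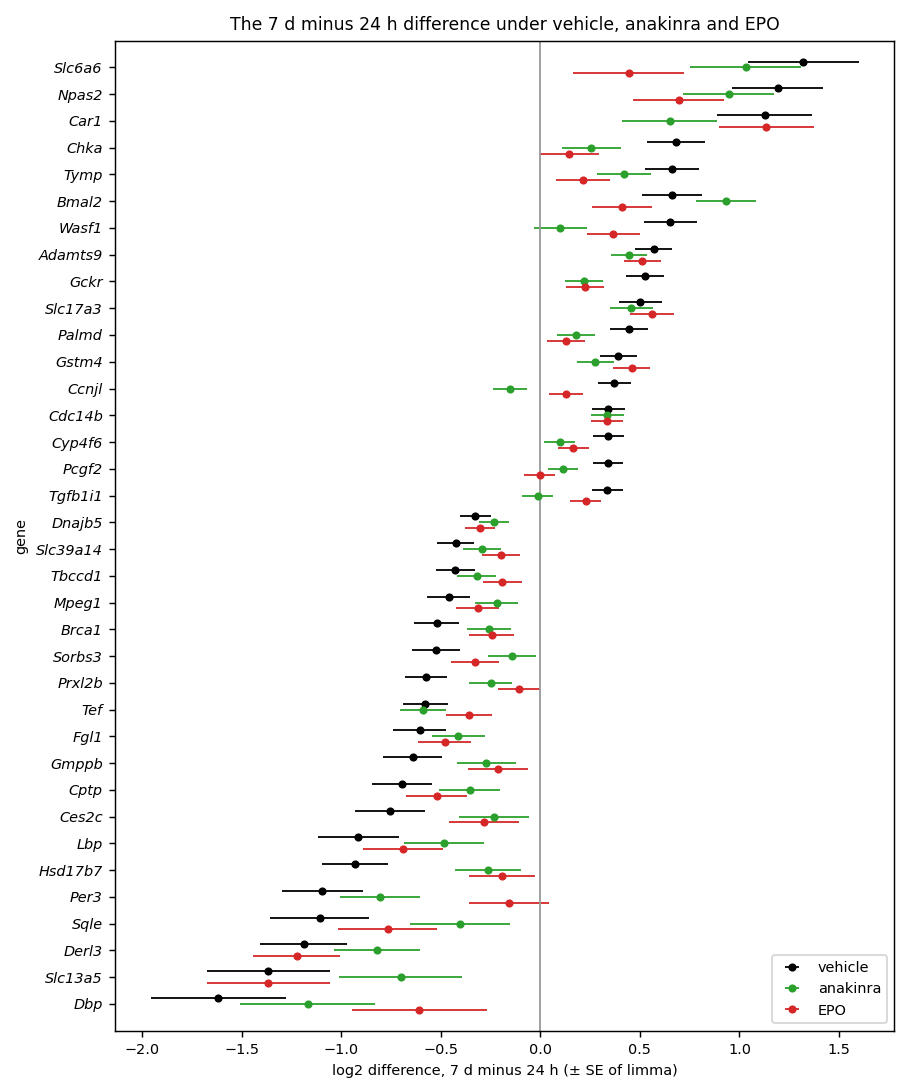
Difference between 7 days and 24 h (horizontal axis, log2, points with ± SE from limma) of the 36 genes that passed under vehicle (vertical axis), for vehicle in black, anakinra in green and EPO in red. Most green and red points lie on the same side of 0 as the black ones and nearer to 0, which are values of genes picked on the black points, and 34 anakinra and 35 EPO points share the direction.

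Of the listed markers of other liver cells and of leukocytes 1 passed, Adamts9. Over all 14506 genes 6299 had a positive difference, and the median was -0.02. Of 21 Kupffer cell and macrophage markers 0 passed and 19 were positive, with a median of 0.19. Their mean level per array ran from 8.61 to 9.04 at 24 h and from 8.93 to 9.20 at 7 days. Mpeg1 (10714103), a pore-forming protein of macrophages that is not on that list, went the other way, from 10.82 ± 0.10 to 10.36 ± 0.14 (-0.46, SE 0.11, adjusted p = 0.0409, up to 0.141 without 1 array). Of 13 endothelial markers 11 were positive (median 0.15), and without the arrays of narrow spread 9 were (median 0.06). Of 23 stellate cell and matrix markers 1 rose, Adamts9, beside 0.117% of all genes, and the median was 0.01. Mean levels of 16 neutrophil markers ran from 5.90 to 6.31 at 24 h and from 5.89 to 6.21 at 7 days, and those of 23 lymphocyte markers from 6.44 to 6.58 and from 6.45 to 6.71. These levels lie near the median of all probes, and none of the genes on either list passed. Ribosomal protein genes had small differences of one sign, with 64 of 68 positive, a median of 0.13 and 0 passed, and of 56 oxidative phosphorylation genes 45 were positive, with a median of 0.08 and 0 passed. The part of these cells and of the ribosomal genes' shift in the differences above was not tested.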

How the data were processed

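The deposited table held log2 values that the authors made with RMA in the oligo package, per the submitters' processing notes, which name no version. Scanner values were not used here, and the log2 values were taken as deposited. Of 29214 probes 15310 had a single gene symbol, and each of 14506 genes was represented by its probe of highest mean. The test was limma 3.58.1 (lmFit and eBayes) in R 4.3.3, on a model of 10 group means fitted to all 50 arrays (40 residual degrees of freedom), two-sided p-values and Benjamini-Hochberg adjustment within each of 7 contrasts. It was tested on simulated data first. The number of arrays limits the precision, and no detection call was used.

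The groups were taken from the sample labels, and the members, the 37 gene lists and the tests were chosen with earlier results of these data known. Of the 1070 genes given in the lists 937 were measured. Genes named were the 12 highest and 12 lowest that passed, up to 3 per list, and a set taken whatever it showed. The replicate numbers of the titles were not used as a pairing, since each array is another animal.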

Additional observations from a re-analysis of the deposited data

Results flagged for a closer look

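Dixon's test was applied to the 24 h and the 7 day group of the genes named, 150 groups in all, and marked 11 single arrays as far from the other 4 (chance marks about 1 in 20). Array 3 at 7 days accounted for 7 of them, being the lowest for Hsd17b7 (7.94), Sqle (6.87), Idi1 (6.78), Cyp51 (10.04), Msmo1 (9.62), Fgl1 (11.8) and C4bpa (12.5). The first 5 belong to cholesterol synthesis. Array 3 at 24 h was the lowest for Tbccd1 (9.10) and Gmppb (6.62), array 4 at 7 days for Wasf1 (8.09), and array 5 at 24 h the highest for Cyp2c11 (13.3). The change from 24 h to 7 days differed between vehicle and EPO by the interaction test for Hamp (3.86) and Cd52 (-2.10).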

How the results depend on the processing

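The count of genes that passed between 7 days and 24 h, 36, became 6 in a fit of only the arrays of the groups contrasted, 170 with array weights and 18 with each array centred on its median. It stayed within 1.5 times with the eBayes trend and robust options (34), the probe of highest variance (36), genes above the median level (43), another quantile normalisation (51), the arrays of narrow spread left out (33) and the replicate block (29), and ran from 9 to 40 with 1 array left out. The deviations of same-numbered arrays from their group means correlated by 0.32, 0.37, 0.72, -0.13 and 0.20 for numbers 1 to 5 (median of other pairs -0.01), so 1 pair missed the mark of 0.1 set for a pairing, and 2 of the 5 arrays at 7 days correlated best with their own number. Of the 36 genes 29 passed with the replicate number as a block, and the block changed no other count of calls by over 1.5 times except that of 7 days against sham. That count, 0, became 2 with array weights and 2 with the block, and ran from 0 to 2 with 1 array left out. The count at 24 h against sham, 120, became 48 with only the groups contrasted, 267 with array weights and 79 without the narrow arrays, and ran from 56 to 151. The anakinra count, 6, became 12 with only its groups, 111 with weights, 10 with genes above the median level, 2 with centring and 19 without the narrow arrays, and ran from 1 to 8. The EPO count, 206, became 746 with weights and 318 without the narrow arrays, and ran from 115 to 313. The interaction with EPO, 2 genes, became 19 with only its groups, 39 with weights, 4 with genes above the median level, 7 with another quantile normalisation and 1 with centring, and ran from 1 to 11, and that with anakinra ran from 0 to 1. The cause of these changes was not tested. None of the 36 genes reversed under any alternative. No measure of signal over background was available here, so whether genes at low levels were detected is not known.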

Other observations

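Other gene groups of the vehicle livers held few calls between the times. Of 27 genes of the NRF2 and oxidative stress response 0 passed and 23 were positive, with a median of 0.07. Over all genes 6299 of 14506 were positive and the median was -0.02. Of 34 interferon response genes 0 passed and 22 were positive (median 0.10). The chemokine Cxcl9, which interferon gamma induces, lay between 7.35 and 8.28 at 24 h and between 8.38 and 9.20 at 7 days, with the groups apart, and did not pass (0.84, SE 0.23, adjusted p = 0.108). Of 23 glucocorticoid response genes 0 passed and 12 were negative, with a median of -0.01. Of 26 genes of gluconeogenesis and glycolysis 1 rose, Gckr, beside 0.117% of all genes. The glucose-6-phosphatase gene G6pc1 measured 11.06 ± 0.81 and 11.81 ± 0.52 and did not pass (adjusted p = 0.624). The cell cycle inhibitor Cdkn1a measured 8.25 ± 0.52 at 24 h and 9.06 ± 0.16 at 7 days (0.81, adjusted p = 0.214).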
